A study of Danio rerio with 12 samples.

Results

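The miR-130, miR-301 and miR-454 miRNAs were followed in the caudal fin of adult zebrafish of the Ekkwill line, in the regenerate 4 days after amputation (4 dpa) and in the fin taken at amputation (0 dpa). Members were chosen by name alone: every row of the small RNA table called miR-130, miR-301 or miR-454, whatever the locus or arm, which gave 6 of 148 rows. There were 3 small RNA libraries at 4 dpa and 3 at 0 dpa, each made from several pooled fins, and the same numbers of polyA+ mRNA libraries, 12 in all. The labels name no transgene, and fins were cut under anesthesia with MS222.

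A miRNA is a short RNA cut from a hairpin precursor that guides Argonaute proteins to messenger RNAs, mainly through its seed, bases 2 to 8 from the 5′ end. miRNAs with the same seed can bind many of the same transcripts. This family is studied in human and mouse cells for its part in Tgf-beta and Bmp signalling, vessel growth and fat cell formation. The gene for PPAR-gamma is a well-known target of miR-130 in those species.

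The mature sequences are printed to show what the members share and where they part, 5′ to 3′ as DNA letters with the seed in capitals. They come from the supplementary annotation of the study, where a sequence was found for all 148 rows.
miR-130a-3p: cAGTGCAAtgttaaaagggcc
miR-130c-1-3p: cAGTGCAAtattaaaagggca
miR-301a-3p: cAGTGCAAtagtattgtcaaagc
miR-454a-3p: tAGTGCAAtattgctaatagggt
miR-454b-3p: tAGTGCAAtattgcttatagggtc
miR-130b-5p: aCTCTTTCcctgttgcactact

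Of the 6 rows, 5 carried the seed AGTGCAA, and no other row of the table did. The exception was miR-130b-5p, which is cut from the other arm of its hairpin and has the seed CTCTTTC, so that it belongs to the family by name and precursor but not by seed. Another 4 rows, all named miR-19, held the letters GTGCAA of the family seed 1 base closer to the 5′ end. miR-454a-3p and miR-454b-3p differed over their 23 shared bases by A16T alone, where positions are counted from 1 at the 5′ end and the base of miR-454a-3p comes first. miR-130a-3p and miR-130c-1-3p differed by G10A and C21A. The final base of miR-130a-3p did not match its annotated hairpin, and C21A lies at that base.

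The hairpin of miR-130b is shown because it holds both seeds, with the 5p and 3p products in capitals. The 3p product is marked without the final base of its annotated sequence, which did not match the hairpin.
miR-130b hairpin: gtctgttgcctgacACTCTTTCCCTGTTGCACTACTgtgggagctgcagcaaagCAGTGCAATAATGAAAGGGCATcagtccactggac

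The 3p product of this precursor starts with the family seed, whereas the 5p product, which is the one in the table, does not. The table holds the more abundant product of each precursor, and miR-130b-3p was not analysed here. The study's annotation lists miR-130b-3p too, and the number ending its identifier, if a tag count, is close to that of miR-130b-5p. The sums, shares and ratios below thus leave out a product with the family seed.

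In the RefSeq annotation (assembly GRCz12tu), which is not the build of the files and was used for neighbours only, mir130c-2, mir301b, mir454b and mir130b follow one another on chromosome 5. On chromosome 10, mir454a, mir301a-1 and mir130a-1 follow one another inside the span of ska2, a gene for a spindle and kinetochore protein that is also the host of miR-301a in human. A gene model named mdh2 spans the same place. A second site on chromosome 10 holds mir130c-1 next to mir301c. The mature miR-130c is made at 2 loci, and its tags cannot be assigned to either of them. No mRNA row carried the name ska2, and the host transcript was not analysed here, nor were miR-301b and miR-301c.

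The libraries held between 255515 and 278850 tags outside miR-21 at 4 dpa and between 342820 and 930394 at 0 dpa, which is the depth that bears on the family. miR-21 is set apart because it took most tags at 4 dpa. The family was a minor part of the fin's miRNAs. Its 6 rows together had 667, 729 and 626 tags at 4 dpa against 932, 1712 and 551 tags at 0 dpa.

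As a share of the tags outside miR-21, the family took 0.239% (95% Wilson interval 0.222 to 0.258), 0.262% (0.243 to 0.281) and 0.245% (0.227 to 0.265) in the 4 dpa libraries. In the 0 dpa libraries it took 0.179% (0.168 to 0.190), 0.184% (0.176 to 0.193) and 0.161% (0.148 to 0.175). All 3 shares at 4 dpa lay above all 3 at 0 dpa. The mean was 0.249% ± 0.0117 at 4 dpa and 0.174% ± 0.0122 at 0 dpa (SD, n = 3 each), a difference of 0.0742 percentage points with a two-sided exact permutation p of 0.1, the smallest that 3 libraries against 3 allow. As a share of all tags, miR-21 included, the order of the days turned: the mean was 0.0820% at 4 dpa and 0.156% at 0 dpa (exact permutation p = 0.1). Reads had no molecular identifiers, and the intervals hold the error of counting alone.

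Within that sum the members moved in opposite directions. Relative to the other miRNAs, miR-454b-3p and miR-130a-3p were higher at 4 dpa and miR-130c-1-3p was lower than at 0 dpa, where the signs of both rises turn if libraries are scaled to all tags, miR-21 included. The others, miR-301a-3p, miR-454a-3p and miR-130b-5p, did not pass the test. Thus 3 of the 6 rows were called, 2 higher and 1 lower, at an adjusted p under 0.05 in limma, beside 42.6% of all 148 miRNAs called, 22.3% higher and 20.3% lower. In 4 of the 6 rows no scaled 4 dpa level fell within the range of 0 dpa, beside 55.4% of all miRNAs without overlap. Neither count sets the family apart from the table as a whole. Of the 148 rows 146 are distinct, as miR-200b-3p and miR-200c-3p have the same tags, and so have miR-141-3p and miR-200a-3p. The shares of all miRNAs and the tag totals hold both rows of each pair. The median log2 fold-change was 0.32 over the 6 rows and −0.06 over all miRNAs. In these bulk samples, more cells that hold a miRNA and more miRNA per cell cannot be told apart.

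**Figure D1:**
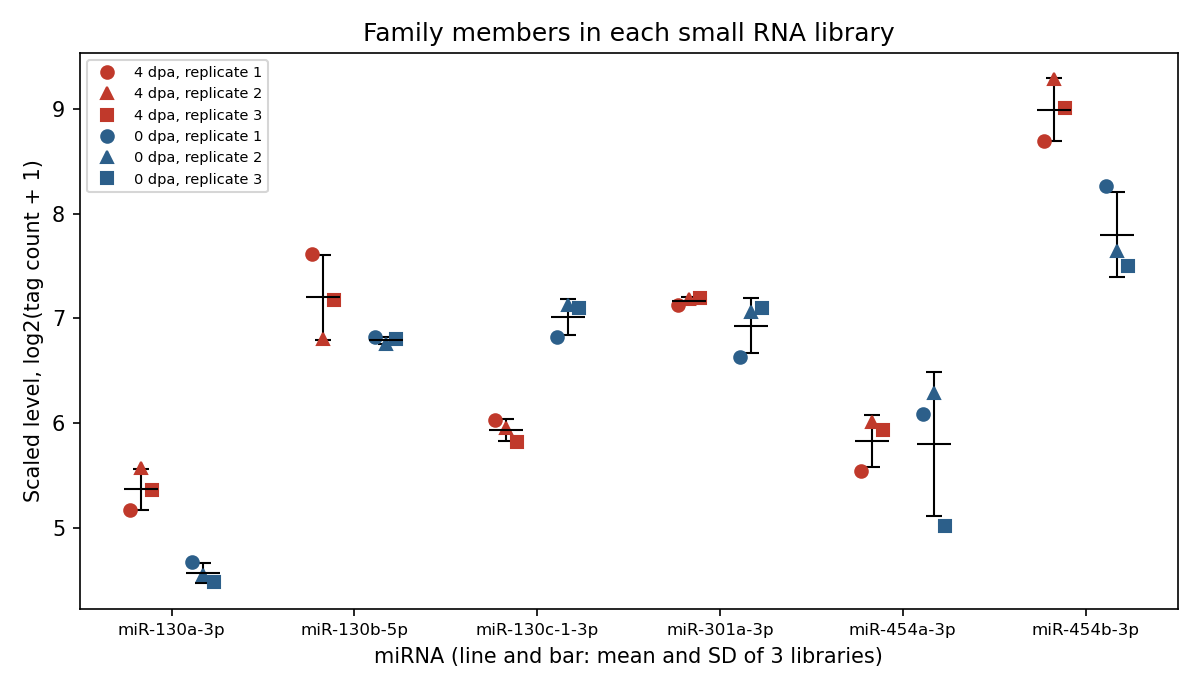
Scaled level of each family member, as log2(tag count + 1) after scaling, with 4 dpa libraries in red left of 0 dpa libraries in blue. Each point is a library, and the line and bar give the mean and SD of 3 libraries. The days are apart for miR-130a-3p, miR-130c-1-3p and miR-454b-3p, and narrowly so for miR-301a-3p. For miR-454a-3p the 0 dpa libraries spread from 5.01 to 6.29 around the 4 dpa libraries. Levels are relative to the other miRNAs of a library.

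miR-454b-3p was the most abundant member on both days. It had 309, 434 and 336 tags at 4 dpa against 396, 502 and 161 tags at 0 dpa, and its scaled levels were 8.69, 9.29 and 9.01 at 4 dpa, against 8.26, 7.64 and 7.50 at 0 dpa. A scaled level is log2(tag count + 1), shifted per library by the trimmed mean of its log ratios to the mean library. All 4 dpa libraries lay above all 0 dpa libraries once scaled, although the raw tag counts of the days overlapped. The mean level was 8.99 ± 0.30 at 4 dpa and 7.80 ± 0.41 at 0 dpa (SD, n = 3 each), a log2 fold-change of 1.19 with SE 0.26 (adjusted p = 0.00685 by limma) or 2.29-fold. By mean level it ranked 54 of 148 at 4 dpa and 73 at 0 dpa. The call held in each of the 6 fits that left out a library, with limma adjusted p from 0.00278 to 0.0318.

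miR-130c-1-3p went the other way with the same seed. It had 48, 42 and 36 tags at 4 dpa against 145, 351 and 122 tags at 0 dpa, so that the raw counts of the days did not overlap. The 4 dpa libraries held fewer tags outside miR-21, and raw counts therefore lean toward a fall. Its scaled levels were 6.03, 5.95 and 5.82 at 4 dpa, against 6.82, 7.13 and 7.10 at 0 dpa. The mean was 5.93 ± 0.11 at 4 dpa and 7.02 ± 0.17 at 0 dpa (SD, n = 3 each), a log2 fold-change of −1.08 with SE 0.22 (adjusted p = 0.00412 by limma), which is 0.472 times the 0 dpa level. It ranked 105 at 4 dpa and 85 at 0 dpa. It was the only member called with the same sign under each alternative tried, with limma adjusted p from 5.64e-05 to 0.0308.

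miR-130a-3p, the least abundant member, differs from miR-130c-1-3p by G10A alone over the bases that match its hairpin. It had 26, 32 and 26 tags at 4 dpa against 32, 58 and 19 tags at 0 dpa, and scaled levels of 5.17, 5.57 and 5.36 at 4 dpa, against 4.67, 4.55 and 4.48 at 0 dpa. The scaled days did not overlap. The log2 fold-change was 0.80 with SE 0.26 (adjusted p = 0.0382 by limma), or 1.74-fold. This call is thin: sampling of so few tags alone gives a counting error of about 0.27 on the log2 scale at 4 dpa and 0.26 at 0 dpa, above the SD between libraries, 0.20 and 0.10. It was kept without 0 dpa replicate 1 (limma adjusted p = 0.0488) but lost without any other single library, with limma adjusted p of 0.0665, 0.114 and 0.102 without 4 dpa replicates 1, 2 and 3, and 0.113 and 0.0593 without 0 dpa replicates 2 and 3.

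miR-301a-3p had the smallest SD between 4 dpa libraries, 0.03, which is below its counting error of 0.14 and so no sign of a steady level. It had 104, 100 and 95 tags at 4 dpa against 127, 335 and 122 tags at 0 dpa. The scaled levels were 7.13, 7.18 and 7.19 at 4 dpa, against 6.63, 7.06 and 7.10 at 0 dpa. The days did not overlap, but the closest libraries of the days were almost level, and the log2 fold-change of 0.24 with SE 0.22 (adjusted p = 0.424 by limma) was not called, with a 95% interval from −0.26 to 0.73.

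miR-454a-3p, which differs from miR-454b-3p by A16T and 1 base of length, had 34, 44 and 39 tags at 4 dpa against 87, 196 and 28 tags at 0 dpa. Its scaled levels were 5.54, 6.01 and 5.93 at 4 dpa, against 6.09, 6.29 and 5.01 at 0 dpa. The SD between 0 dpa libraries, 0.69, was the largest of the family and well above the counting error of 0.19. The log2 fold-change was 0.03 with SE 0.36 (adjusted p = 0.940 by limma), with an interval from −0.81 to 0.87 that holds the change of miR-130a-3p. Without 0 dpa replicate 3, the low library, the log2 fold-change was −0.35 (limma adjusted p = 0.305).

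miR-130b-5p, the member without the family seed, had 146, 77 and 94 tags at 4 dpa against 145, 270 and 99 tags at 0 dpa. Its scaled levels were 7.61, 6.81 and 7.18 at 4 dpa, against 6.82, 6.75 and 6.80 at 0 dpa. The 4 dpa libraries were spread (SD 0.40) and the 0 dpa libraries were nearly level (SD 0.04, below the counting error of 0.12). The log2 fold-change was 0.41 with SE 0.25 (adjusted p = 0.221 by limma), with an interval from −0.16 to 0.98.

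**Figure D2:**
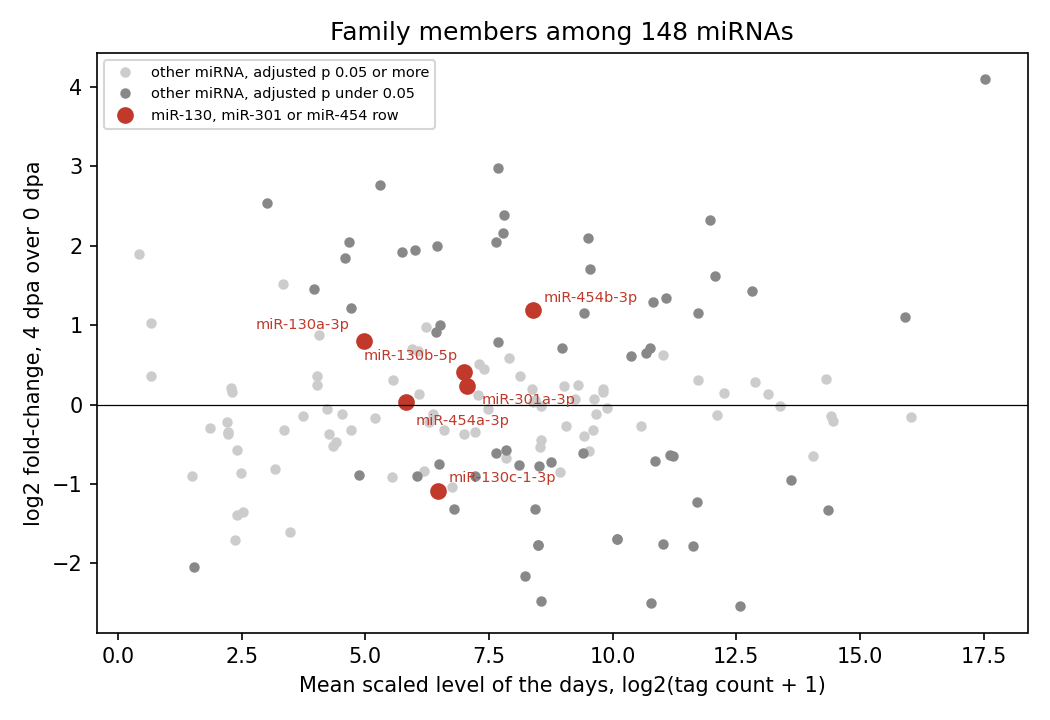
Log2 fold-change, 4 dpa over 0 dpa, against the mean scaled level, for 148 miRNAs, with the 6 family rows in red and labelled. Dark grey points are other miRNAs with an adjusted p under 0.05. By mean level miR-454b-3p ranked 54 at 4 dpa and 73 at 0 dpa. The other members ranked lower, from 84 to 112 at 4 dpa and from 85 to 116 at 0 dpa. The fold-changes of the family run from 1.19 for miR-454b-3p down to −1.08 for miR-130c-1-3p under the trimmed-mean scaling.

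Every fold-change above is set against most of the other miRNAs, by the trimmed mean. With the deposited values left unscaled the median over all miRNAs was −1.09, and with each library scaled to all its tags it was −1.50. Set against these medians, the change of miR-454b-3p was 1.25 and that of miR-130c-1-3p −1.03 under both scalings. By arithmetic, these equal the trimmed-mean values set against their own median of −0.06, since the scalings differ by a constant per library. They are no sign of stability. Taken without that reference, all 6 rows were lower at 4 dpa when scaled to all tags, and 5 of them were called as lower, beside 75% of all miRNAs called there, 4.73% higher and 70.3% lower. The exception was miR-454b-3p, at −0.25 with SE 0.22 (adjusted p = 0.306 by limma). In the unscaled values only miR-130c-1-3p was called, at −2.11 with SE 0.63 (adjusted p = 0.00613 by limma), beside 33.1% of all miRNAs, 2.03% higher and 31.1% lower. miR-454b-3p was then at 0.16 and miR-130a-3p at −0.23, neither called.

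**Figure D3:**
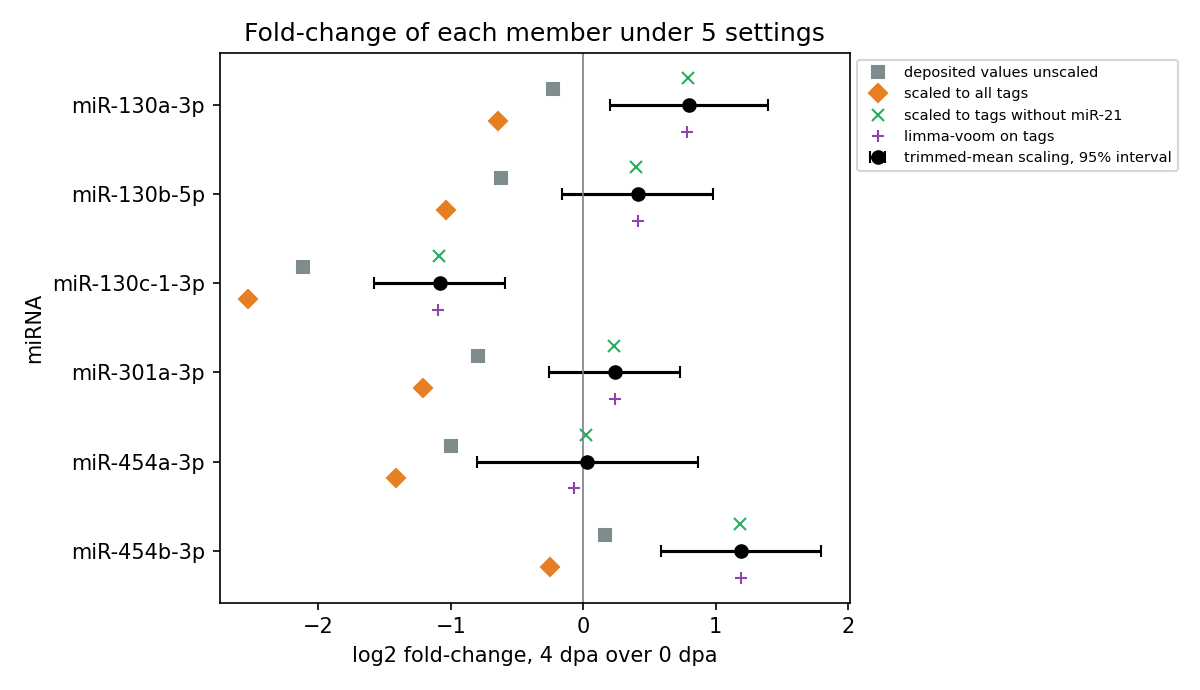
Log2 fold-change, 4 dpa over 0 dpa, of each family member under 5 settings, with the 95% interval of the trimmed-mean scaling as a black bar. Scaling without miR-21 and limma-voom lie close to the black points, whereas the unscaled values and scaling to all tags lie to the left, and miR-130c-1-3p is left of 0 in each.

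Comparisons between members of the same library do not need a scaling factor, because both are counted in the same tags. Of 4 such ratios tested, 3 had no overlap between the days. The log2 ratio of the miR-454 rows to the miR-130 and miR-301 rows of the 3p arm was 0.95, 1.46 and 1.26 at 4 dpa, against 0.67, −0.09 and −0.48 at 0 dpa. The mean was 1.22 ± 0.26 at 4 dpa and 0.03 ± 0.58 at 0 dpa (SD, n = 3 each), a difference of 1.19. The ratio of miR-454b-3p to its near-copy miR-454a-3p was 3.18, 3.30 and 3.11 on the log2 scale at 4 dpa, against 2.19, 1.36 and 2.52 at 0 dpa, a difference of 1.18. Each of these had a two-sided exact permutation p of 0.1, the smallest possible, and 0.133 adjusted over the 4 ratios.

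The third separated ratio set the members inside ska2 (miR-130a, miR-301a and miR-454a) against those of the chromosome 5 group other than miR-130c (miR-130b and miR-454b). It was −1.47, −1.54 and −1.43 on the log2 scale at 4 dpa, against −1.14, −0.39 and −0.62 at 0 dpa, a difference of −0.76 (exact permutation p = 0.1, 0.133 adjusted). The tags of the chromosome 5 pair thus weighed more at 4 dpa in all 3 libraries. Within the pair, miR-454b-3p averaged 53.2% of the family's tags at 4 dpa and 33.7% at 0 dpa. miR-130b-5p, a 5p product set against 3p products, averaged 15.8% and 16.4%. All 3 separated ratios hold miR-454b-3p, so that they are not independent of its change and do not show a shift of a whole locus. Of the members inside ska2, only miR-130a-3p was called higher, relative to the other miRNAs. miR-301a-3p and miR-454a-3p were not called, with log2 fold-changes of 0.24 and 0.03. Whether the changes of these members differ from one another was not tested. The ratio of miR-130b-5p to the summed 3p rows differed by −0.12 between the days (exact permutation p = 0.7), and this sign turned to 0.18 without 4 dpa replicate 2 (exact permutation p = 0.7).

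Described rather than tested, because the members were picked for their opposite changes, the ratio of miR-130c-1-3p to miR-454b-3p tags was 0.155, 0.0968 and 0.107 at 4 dpa, against 0.366, 0.699 and 0.758 at 0 dpa. The ratio of miR-130c-1-3p to miR-130a-3p was 1.85, 1.31 and 1.38 at 4 dpa, against 4.53, 6.05 and 6.42 at 0 dpa. Both ratios were lower in every 4 dpa library than in any 0 dpa library.

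The make-up of the family differed between the days. miR-454b-3p gave 46.3, 59.5 and 53.7% of the family's tags at 4 dpa, against 42.5, 29.3 and 29.2% at 0 dpa. miR-130c-1-3p gave 7.20, 5.76 and 5.75% at 4 dpa, against 15.6, 20.5 and 22.1% at 0 dpa, where it was second or level with second in each library. The 0 dpa library closest to 4 dpa was replicate 1, in both of these shares. miR-130a-3p stayed between 3.90 and 4.39% at 4 dpa and between 3.39 and 3.45% at 0 dpa, and miR-301a-3p averaged 14.8% ± 0.984 at 4 dpa and 18.4% ± 4.37 at 0 dpa (SD, n = 3 each).

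**Figure D4:**
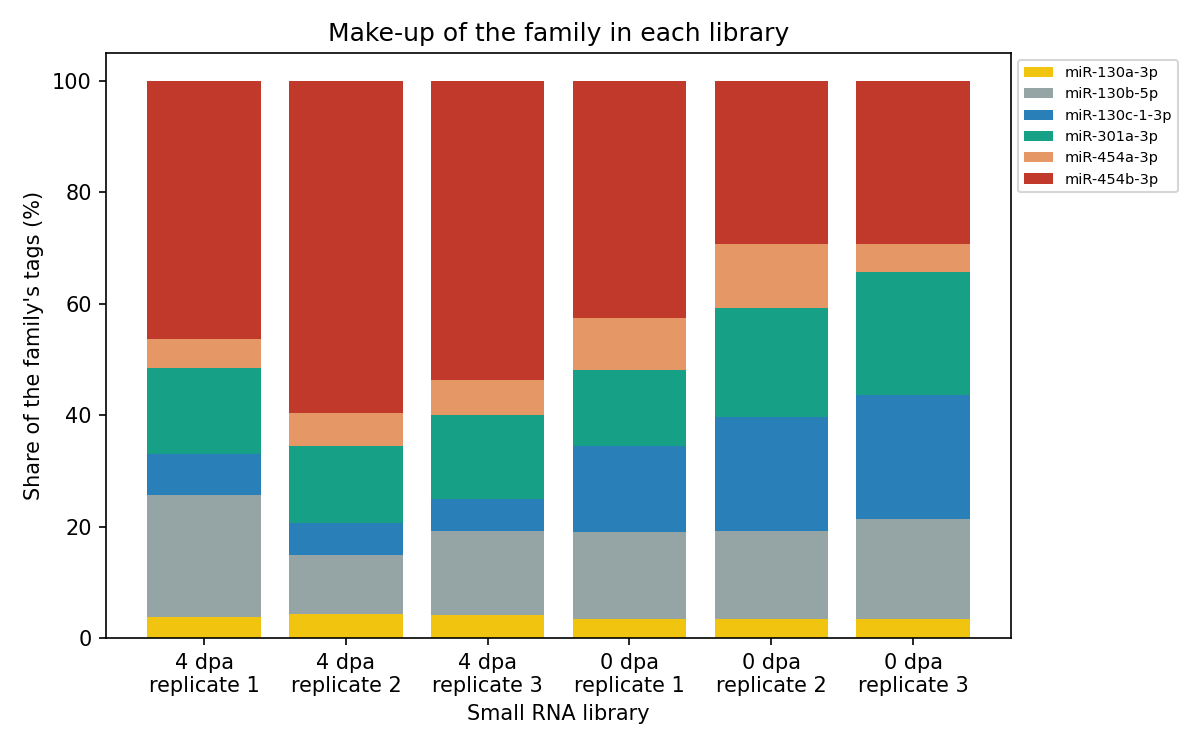
Share of the family's tags, in percent, taken by each member in each small RNA library, with the 4 dpa libraries to the left of the 0 dpa libraries. miR-454b-3p takes 46.3 to 59.5% at 4 dpa, and miR-130c-1-3p takes 5.75 to 7.20% at 4 dpa, against 15.6 to 22.1% at 0 dpa.

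The members also varied together only in part. Over the 6 libraries, Pearson's r of the scaled levels was 0.97 between miR-454b-3p and miR-130a-3p and −0.95 between miR-454b-3p and miR-130c-1-3p, and 0.29 between miR-454b-3p and miR-454a-3p. These values describe 6 libraries that fall into 2 days and share a scaling. The mean level of the 5 rows with the family seed was 6.51, 6.80 and 6.66 at 4 dpa, against 6.49, 6.53 and 6.24 at 0 dpa. Among 125 other miRNAs with at least 10 tags on average, those most like this mean were let-7f-5p (r = 0.96), miR-457a-5p (r = 0.96) and miR-25-3p (r = 0.92) over the 6 libraries. let-7f-5p had a log2 fold-change of 0.62 with SE 0.30 (adjusted p = 0.136 by limma), miR-457a-5p one of 0.91 (adjusted p = 0.0371 by limma) and miR-25-3p one of 0.71 (adjusted p = 0.0195 by limma).

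Genes reported as targets of the family in human or mouse cells were read from the mRNA libraries, with no test for binding sites in the zebrafish transcripts. From 26 gene names, 17 matched rows of the table, 28 genes with all copies. Of these, 18 were called, 10 higher and 8 lower at 4 dpa, beside 62.1% of all 16951 genes called, 31% higher and 31.2% lower, so that the list was near the background. Its median log2 fold-change was 0.15. No row matched pparg.

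The largest rise of the list was in GJA1 (ENSDARG00000041799), which encodes a connexin of gap junctions. Fold-changes of genes are on the log2(CPM + 1) scale, which understates those of genes with few reads. GJA1 had 192, 144 and 191 CPM (read counts scaled to the size of the library) at 4 dpa and 34.9, 27.6 and 37.9 CPM at 0 dpa, a log2 fold-change of 2.38 with SE 0.15 (adjusted p = 7.32e-06 by limma). abca1b (ENSDARG00000079009), a cholesterol exporter, rose by 1.36 (SE 0.14). gja1a (ENSDARG00000071192), the other copy of GJA1, rose by 1.19 (SE 0.18). The largest falls were in ldlra (ENSDARG00000029476), a receptor for lipoproteins, with a log2 fold-change of −1.45 (SE 0.31), RUNX3 (ENSDARG00000052826), a transcription factor, with −1.37 (SE 0.12), and TGFBR2 (ENSDARG00000034541), a receptor for Tgf-beta, with −1.16 (SE 0.10). The other TGFBR2 copy (ENSDARG00000059363) was not called, at 0.50 with SE 0.23 (adjusted p = 0.0876 by limma).

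Of 12 matched genes that make or use miRNAs, 6 were called higher and 2 lower at 4 dpa. In either direction 66.7% were called beside 62.1% of all genes, so that this list too was near the background. By direction its calls leaned toward rises, beside 31% of all genes higher and 31.2% lower. Its median log2 fold-change was 0.25, against −0.005 over all genes, and this lean was not tested. DROSHA, which cuts the hairpin precursor out of its primary transcript in the nucleus, was called higher. DROSHA had 15.7, 12.3 and 16.3 CPM at 4 dpa and 8.83, 7.33 and 9.46 CPM at 0 dpa, a log2 fold-change of 0.74 with SE 0.14 (adjusted p = 0.00246 by limma). DICER1, which frees the mature duplex, rose by 0.36 with SE 0.11 (adjusted p = 0.0176 by limma), and AGO2, an Argonaute, fell, with a log2 fold-change of −0.50 with SE 0.10 (adjusted p = 0.00211 by limma). The other Argonaute rows went the other way: AGO3 rose by 1.25 with SE 0.27 (adjusted p = 0.00386 by limma) and ago3a by 0.52 with SE 0.13 (adjusted p = 0.00962 by limma). DGCR8, the partner of DROSHA, was not called (0.15, SE 0.09), and no row matched xpo5, the export factor.

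Levels of cell type markers in the mRNA libraries are given beside these values. Their counts stand against 62.1% of all genes called, 31% higher and 31.2% lower, and with so few genes a list they are read as levels only. Summed over 4 osteoblast markers the level was 6075.8 to 6816.5 CPM at 4 dpa and 220 to 311 CPM at 0 dpa, with 3 of 4 called higher. COL10A1 gave most of that sum, at 5868 to 6562 CPM at 4 dpa and 152 to 225 CPM at 0 dpa, and runx2b was not called, at 0.25. Over 4 epidermis markers it was 27746.6 to 33207.9 CPM at 4 dpa and 44117.3 to 51787.8 CPM at 0 dpa, with 2 of 4 called lower. The keratins krt5 and krt4 made up nearly all of that sum, whereas epcam (−0.38) and TP63 (0.19) were not called. Over 8 endothelium markers it was 177 to 205 CPM at 4 dpa and 75.9 to 114 CPM at 0 dpa. Of these markers 62.5%, 5 of 8, were called higher, beside 31% of all genes called higher. Most of that sum was plvapb, at 127 to 149.8 CPM at 4 dpa and 44.6 to 69.9 CPM at 0 dpa, and KDR was not called, at −0.25. Over 6 myeloid genes it was 252 to 317 CPM at 4 dpa and 396 to 651 CPM at 0 dpa, with 4 of 6 called lower. The rows not called were copies of MPEG1. ENSDARG00000055290 was at −0.08. ENSDARG00000043093 was at −1.20, with 220 CPM in 0 dpa replicate 1 against 55.3 and 62.3 CPM in 0 dpa replicates 2 and 3. Over 4 blastema and fin fold genes it was 1840.3 to 2656.6 CPM at 4 dpa and 2.04 to 2.34 CPM at 0 dpa, with all 4 called higher, and over 5 pigment genes 23.4 to 28.8 CPM at 4 dpa and 37.9 to 43.8 CPM at 0 dpa, with 3 called lower and 1 higher. Red blood cell markers summed to at most 13.0 CPM in each library, and the muscle markers to at most 7.85 CPM. Of the muscle markers, TNNT3 was called higher, with a log2 fold-change of 2.00, and ckma lower, with −1.42. The part of these levels in the changes of the family was not tested.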

How the data were processed

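The authors clipped, trimmed and collapsed the small RNA reads into tags, annotated tags of miRNA length with miRBase and the Zv9 genome, and tabulated the counts. The deposited values for small RNAs are on a log2 scale. Although named as log CPM, they were log2(tag count + 1) without scaling: 2 to the power of the value, less 1, came out whole within 0.01 for 100% of the table, the farthest being 0.0022 away. The deposited mRNA values are log2(CPM + 1) over adjusted library sizes; the zebrafish aligner and counter are not given in the sources used here. A gene name was found for 13664 of 16951 identifiers.

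Each library was shifted by a trimmed mean of log ratios to the mean library (30% of ratios and 5% of levels trimmed at each end) and fitted with limma 3.58.1 in R 4.3.3 (lmFit, eBayes with trend), 4 dpa against 0 dpa, without covariates. Adjusted p-values are Benjamini-Hochberg over the whole table (threshold 0.05) and come from limma. For miRNAs, 1 was added before the shift. Shares and ratios were compared by two-sided exact permutation tests. The kinds of library were fitted apart. On data simulated for the small RNA comparison, 29 of 30 miRNAs changed by 2 on the log2 scale were recovered among 148, with 1 of 117 unchanged miRNAs called. The simulation gave all miRNAs the same dispersion, and no family row changed by as much under the trimmed mean. These rates therefore do not tell how often changes of the family's size and spread are recovered or falsely called. Shares, tests and plots used Python 3.11.15, NumPy 2.4.6, pandas 2.3.3, SciPy 1.17.1 and Matplotlib 3.10.9.

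Groups came from the sample titles. Small RNA libraries of 1 day differed by more than sampling noise (chi-square per degree of freedom at least 28.5), and each was counted as a replicate, made of several fins. Every row of the family is named. Beside it, the 3 miRNAs with the highest correlation to the mean of the seed rows are named, the 3 largest called rises and falls of the target list, and TGFBR2, GJA1, DROSHA, DGCR8, DICER1 and AGO2. AGO3 and ago3a are given beside AGO2. Some genes that these rules name are not reported here. The members, rules and lists were chosen with earlier results of these data known. ACVR1B, matched by spelling to acvr1, is another gene and was left out. Alternatives were other scalings, another pseudocount, scaling before adding 1, limma-voom, a minimum of 10 tags or 1 CPM, the replicate number as a block, and leaving out each library.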

Additional observations from a re-analysis of the deposited data

How the results depend on the processing

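The calls on the family depended on the scaling more than on any other choice. With the values unscaled 1 row was called, and scaled to all tags 5 rows, with 111 of all miRNAs called. Unscaled, the log2 fold-change was −0.23 for miR-130a-3p, −0.62 for miR-130b-5p, −0.79 for miR-301a-3p and −0.999 for miR-454a-3p. Scaled to all tags, it was −0.65, −1.04, −1.21 and −1.41 for these 4 rows and −0.25 for miR-454b-3p. These turns follow from the fall of the median miRNA under both scalings. The family's share difference was −0.0736 percentage points with miR-21 in the total. miR-454a-3p was also below 0 with limma-voom (−0.070). Over the 6 fits that left out a small RNA library its log2 fold-change ran from −0.35 to 0.28, being −0.06 without 4 dpa replicate 2, 2 to 3 family rows and 42 to 71 miRNAs were called, and the ratio of miR-130b-5p to the 3p rows differed by −0.44 to 0.18. Leaving out an mRNA library, 5 to 9 miRNA pathway genes and 16 to 17 target genes were called, with 5 pathway genes without 4 dpa replicate 3.

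Same-numbered libraries did not deviate together (correlations −0.43, −0.01 and 0.09 for small RNAs, 0.15, −0.00 and 0.15 for mRNAs), so that they share only a number. With the replicate block, 58 miRNAs, 2 family rows, 10486 genes, 18 target genes and 8 pathway genes were called, and the adjusted p of miR-130a-3p in limma was 0.101. Median-of-ratios scaling, scaling without miR-21, scaling before adding 1, a pseudocount of 0.5 and the minimum of 10 tags each left 2 family rows higher and 1 lower. The depth, 19 to 58 tags a library for miR-130a-3p, limits what can be said of that row.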
